A study of Mus musculus with 4 samples.

Results

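The 38 genes described here are interferon-stimulated genes, taken by symbol from a fixed list out of the 55357 genes in the deposited matrices, and all 38 were found. No member was used to sort cells into classes. The study compared retinal cells of mice labelled Ctrl (here Control) with those of mice labelled Diabetic, with 2 single-cell RNA libraries in each group, after beads had enriched live cells for CD31, a surface protein of endothelial cells. The labels gave the tissue and the disease state only, so strain, genotype, age, how diabetes was induced and for how long, and how many animals gave each library are not known here. Nothing says that same-group libraries were made from separate animals, and the p-values therefore measure the spread between these libraries, which may be technical.

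Interferons are secreted proteins that cells release on sensing viral or displaced nucleic acid. Type I interferons bind IFNAR1 and IFNAR2, and the kinases JAK1 and TYK2 then set off a complex that holds STAT2 and IRF9 and binds the interferon-stimulated response element (ISRE) in target promoters. Interferon gamma acts through another element, the GAS. Endothelial cells respond to both kinds, and many targets block virus entry, sense viral RNA or attack intracellular pathogens.

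The ISRE shows in the promoters of members whose levels the results turn on. Sequences are RefSeq promoters on GRCm38.p6, 5′ to 3′ on the strand of the gene, and capitals mark matches to the ISRE core (GAAA, any 2 bases, GAAA) on either strand, overlapping matches joined. Isg15 was chosen because 3 overlapping matches lie at chr4:156200819-156200938 (minus strand). Ifit1 was chosen because it holds 2 separate matches at chr19:34640769-34640888 (plus strand). Rsad2 at chr12:26456453-26456572 (minus strand) fell in endothelial cells of Diabetic libraries. Ifitm2 at chr7:140955962-140956081 and a 30-base site of Ifitm3 at chr7:141010723-141010752 (both minus strand) belong to genes that rose there.
Isg15: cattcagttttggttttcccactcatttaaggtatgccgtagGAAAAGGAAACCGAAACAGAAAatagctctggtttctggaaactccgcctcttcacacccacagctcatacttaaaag
Ifit1: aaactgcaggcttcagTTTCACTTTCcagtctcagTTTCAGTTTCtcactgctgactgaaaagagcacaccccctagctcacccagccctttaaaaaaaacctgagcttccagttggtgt
Rsad2: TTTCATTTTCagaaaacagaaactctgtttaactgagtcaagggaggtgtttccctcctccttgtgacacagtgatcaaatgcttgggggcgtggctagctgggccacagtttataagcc
Ifitm2: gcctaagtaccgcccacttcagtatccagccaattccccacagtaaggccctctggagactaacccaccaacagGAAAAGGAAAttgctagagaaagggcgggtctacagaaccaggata
Ifitm3: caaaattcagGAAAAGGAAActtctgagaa

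Of the 38 members, 30 had an entry in the promoter table, with 36 windows of 250 bases before to 50 bases after a start. The ISRE core was found in 19 of these 36 windows (52.8%), against 1131 of 32851 windows of all genes (3.44%). The GAS motif TTCNNNGAA, also sought on both strands, was found in 8 of the 36 (22.2%) against 2726 of 32851 (8.30%). Genes that rose and genes that fell both held ISRE matches: Ifitm2 and Ifitm3 among the former, Rsad2 and Ifi203 among the latter. The windows of Ifitm1 and Cmpk2 held none, which says only that these letters are not in those windows. No window was given for Usp18, Oas2, Zbp1, Rtp4, Iigp1, Mx1, Parp14 and Ifi27l2a.

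The 4 libraries held 21410 barcodes and between 29792902 and 58792636 UMIs each, and 19716 cells passed the filters. Cells were sorted into classes by summed marker UMIs. The endothelial class held 548 and 251 cells in Control 1 and 2 and 1273 and 604 in Diabetic 1 and 2, with 1481974 to 5067822 UMIs. Its 12 endothelial markers summed to between 16937 and 17518 CPM (UMIs of a gene scaled to a common class total). Rod markers, which free RNA can bring into any droplet, summed to between 3654 and 6588 CPM in the same cells, and 9 of 10 lymphocyte markers were at 0 in each library. Library pairs shared between 5 and 9 barcodes. Subtypes differed in their shares: endothelial cells with inflamed venular markers (Lcn2, Lrg1, Ackr1, Vcam1 and others) made up 1.46% and 3.98% of the class in Control 1 and 2 (8 and 10 cells) and 14.5% and 17.1% in Diabetic 1 and 2 (184 and 103 cells). They held more UMIs per cell than capillary-like cells in every library. In Diabetic 1 the 184 cells held 1410632 UMIs, against 2263328 in 684 capillary-like cells. In Control 1 the 8 cells held 78868 UMIs, against 1453882 in 378 capillary-like cells. The part of depth in these shares was not tested.

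The first comparison asked where in the retina the genes were read out. Most members were highest in endothelial cells: the endothelial class had the highest level of 7 classes in all 4 libraries for 18 members, among them Isg15, Ifit1, Irf7, Stat2, Gbp2, Gbp3, Gbp7 and Ifitm3, and in 3 libraries for 8 more. The other 12 members, which include Ifitm1, Ifitm2, Ifi27l2a, Trim30a and Lgals3bp, were highest there in 2 libraries or fewer. Isg15, a ubiquitin-like protein that is attached to other proteins, lay at 153 and 206 CPM in endothelial cells of Control 1 and 2 and at 184 and 177 CPM in Diabetic 1 and 2. In pericytes it lay at 6.40 and 54.5 CPM in Control, against 73.8 and 149 CPM in Diabetic, below the endothelial level of the same library each time, and 8 of 12 UMIs in Diabetic 1 and 12 of 19 in Diabetic 2 came from 1 cell each. Without the cell with the most member UMIs in each library (its top cell), which in Diabetic 1 was not the cell with 8 Isg15 UMIs, the pericyte values were 6.51, 28.0, 63.5 and 56.5 CPM. In rods Isg15 did not pass 2.88 CPM in any library.

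**Figure D1:**
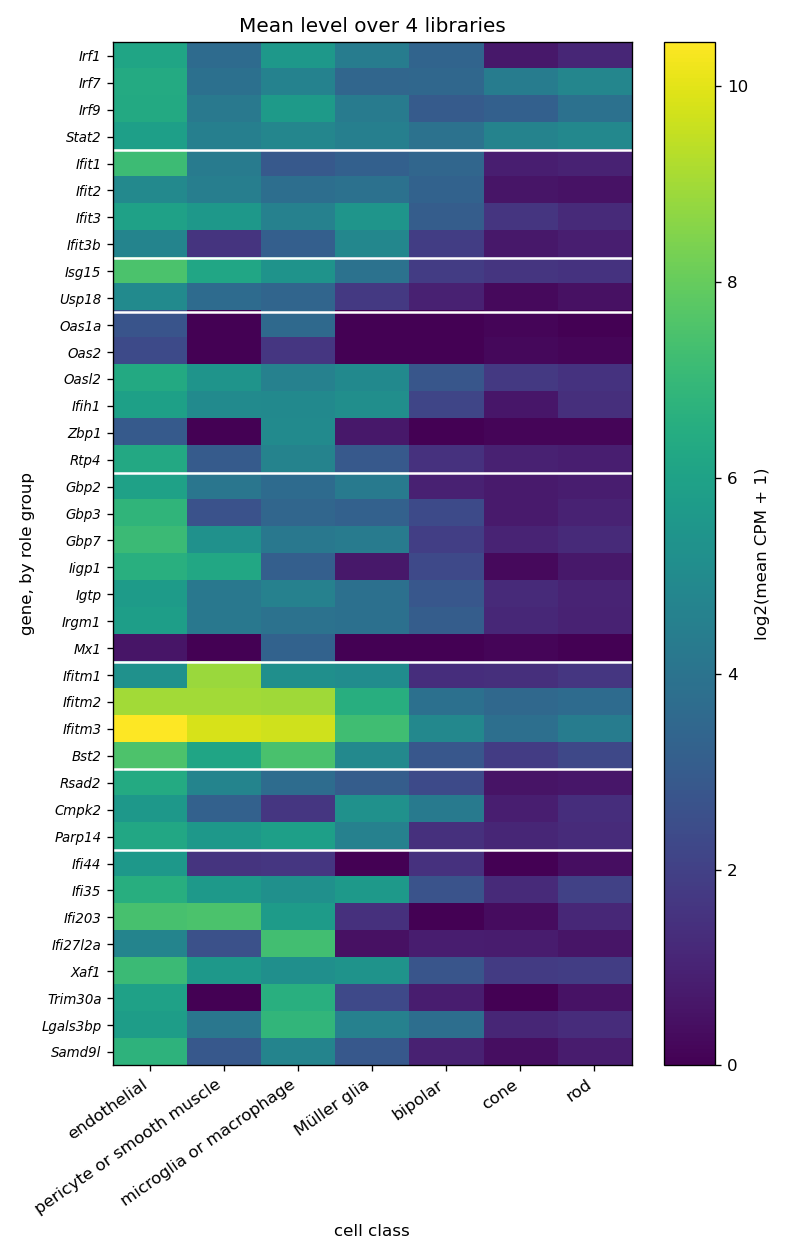
Heat map of log2(mean CPM + 1) over 4 libraries for the 38 members (rows, in role groups split by white lines) in 7 cell classes (columns). Colours are to be compared along a row, since levels were not scaled by gene length; the endothelial column is the brightest for most rows, and Ifitm1 is brightest in pericytes or smooth muscle.

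Within libraries, 27 of the 33 members tested against pericytes or smooth muscle were higher in endothelial cells and 1 was lower, at an adjusted p under 0.05 (16.9% of all genes tested were called higher and 14.2% lower). In the fit of pericytes alone 7 members passed the filter, so many of the 33 passed it here through their endothelial level. Ifitm1, one of 3 neighbouring membrane proteins that hinder virus entry, was the exception. Pericytes held it at 326, 418, 516 and 604 CPM in Control 1, Control 2, Diabetic 1 and Diabetic 2, and endothelial cells at 12.7, 5.40, 69.1 and 64.0 CPM. All 4 pericyte values were above all 4 endothelial values, and the log2 difference was -3.59 ± 0.23 (SE, adjusted p = 3.89e-18).

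Against microglia or macrophages, 22 of 34 members tested were higher in endothelial cells and 3 were lower (23.8% of all genes were called higher and 17.0% lower). Here too many members passed the filter through their endothelial level, since 11 passed it in the fit of microglia alone. The 3 were Ifi27l2a, a small membrane protein, Lgals3bp, a secreted glycoprotein that binds galectins, and Trim30a, a tripartite motif protein. Ifi27l2a lay at 228, 174, 62.0 and 150 CPM in microglia of Control 1, Control 2, Diabetic 1 and Diabetic 2, against 40.9, 43.2, 12.04 and 6.17 CPM in endothelial cells, a log2 difference of -2.97 ± 0.31 (adjusted p = 2.48e-08). The corresponding differences were -0.998 ± 0.25 for Lgals3bp (adjusted p = 0.00218) and -0.78 ± 0.22 for Trim30a (adjusted p = 0.00563). Trim30a was at 0 in pericytes in all 4 libraries.

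Against Müller glia, 30 of 33 members tested were higher in endothelial cells and none was lower (31.0% of all genes called higher). An unadjusted p under 0.05 was reached by 31 of the 33, against 6604 of all 10292 genes tested. Every member tested was higher than in rods (37 of 37, background 36.1%), cones (34 of 34, background 41.1%) and bipolar cells (32 of 32, background 32.5%), and the median log2 differences were 5.93, 6.20 and 4.60, against -0.14, 0.05 and 0.06 over all genes tested. Many members had few UMIs in the photoreceptors, so these counts rest on genes that passed the filter through their endothelial level. That limit holds too for bipolar cells, where 0 members passed the filter in a fit of that class alone. It also holds for many members against Müller glia, where 17 passed it alone.

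Free RNA can give UMIs of an endothelial gene in rods, so each member was set beside Cldn5, a tight junction gene of endothelial cells that rods should lack. Cldn5 lay in rods at 1.19%, 0.340%, 1.37% and 0.704% of its endothelial level in Control 1, Control 2, Diabetic 1 and Diabetic 2. Ifit1 lay at 0.973%, 0.224%, 1.53% and 0.521%, near Cldn5, and Isg15 at 1.32%, 0.504%, 1.56% and 0.997%. Other members lay above Cldn5 in every library, among them Cmpk2 at 2.74%, 1.98%, 6.65% and 3.96%, Ifit3b at 4.22%, 1.71%, 5.72% and 3.33%, and Ifitm1 at 16.7%, 4.80%, 6.62% and 2.50%. By mean level Ifitm1 was highest in pericytes or smooth muscle (466 against 37.8 CPM in endothelial cells) and Ifit3b in Müller glia (27.4 against 25.4 CPM). Cldn5 does not gauge free RNA from those classes, and its part was not tested. Among the members, 3 transcription factors were the only ones at 15.9% or higher in all 4 libraries. Stat2, a part of the complex that binds the ISRE, lay in rods at 50.2%, 45.2%, 49.5% and 51.5% of its endothelial level. Irf9, which gives the complex its DNA contact, lay at 19.0%, 16.4%, 17.7% and 15.9%. Irf7, a factor that amplifies type I interferon, lay at 22.3% and 17.8% in Control and at 48.7% and 50.7% in Diabetic. Irf9 overlaps Rnf31 on the same strand, so some reads of that pair could be assigned to either gene. Irf7 overlaps Phrf1 on the opposite strand only, and the part of that overlap was not tested.

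The main comparison set Diabetic against Control endothelial cells. The interferon-stimulated genes did not move as a block: of 37 members tested, 4 rose, 4 fell and 29 were not called, whereas 4.15% of all 11741 genes tested were called (2.57% higher, 1.58% lower). The 4 that rose were Ifitm1, Ifitm2, Ifitm3 and Iigp1. Those that fell were Rsad2, Cmpk2, Ifi203 and Ifi27l2a. The median log2 change of the tested members was -0.17 (11 above 0, 26 below), against -0.002 over all genes tested. At an unadjusted p under 0.05 there were 15 of the 37 members, against 1971 of all 11741 genes tested. Mx1, an antiviral GTPase, had a UMI in Control 2 alone and was not tested.

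Membrane proteins that block virus entry or exit formed the group with the most genes that rose, 3 of 4. Ifitm1 (chr7:140967221-140969825) lay at 12.7 and 5.40 CPM in Control 1 and 2 and at 69.1 and 64.0 CPM in Diabetic 1 and 2, a log2 change of 2.77 ± 0.24 (adjusted p = 5.51e-05). Ifitm2 (chr7:140954837-140955987) lay at 344 and 395 CPM in Control, against 636 and 640 CPM in Diabetic, a log2 change of 0.79 ± 0.10 (adjusted p = 0.00117). Ifitm3 (chr7:141009586-141010770) lay at 1036 and 1173 CPM in Control, against 1699 and 1665 CPM in Diabetic, a log2 change of 0.61 ± 0.09 (adjusted p = 0.00377). For all 3 genes both Diabetic libraries were above both Control libraries. Bst2 (tetherin), which holds budding virus at the cell surface, overlapped between the groups, at 143 and 206 CPM in Control, against 172 and 206 CPM in Diabetic (log2 change 0.12 ± 0.16, adjusted p = 0.765).

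Of the enzymes that alter nucleotides or use radicals, 2 of 3 fell. Rsad2 (chr12:26442746-26456452) encodes viperin, which makes a chain-terminating nucleotide, and lay at 101 and 114 CPM in Control, against 56.0 and 57.3 CPM in Diabetic (log2 change -0.92 ± 0.12, adjusted p = 0.00118). Its neighbour Cmpk2 (chr12:26469204-26479837) encodes a mitochondrial nucleotide kinase and lay at 52.3 and 62.8 CPM in Control, against 32.2 and 36.1 CPM in Diabetic (log2 change -0.75 ± 0.16, adjusted p = 0.0217). Both Control libraries were above both Diabetic libraries for each of these neighbours. Parp14, an ADP-ribosyltransferase, lay between 68.8 and 82.3 CPM with overlapping groups (log2 change -0.01 ± 0.13).

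Among the remaining members outside the classical families, 2 of 8 fell. Ifi203 (chr1:173920407-173942672), a member of the PYHIN family of DNA-binding proteins, lay at 237 and 224 CPM in Control, against 109 and 110 CPM in Diabetic (log2 change -1.08 ± 0.10, adjusted p = 8.25e-05). Ifi203 overlaps its relative Mndal on the same strand, and Mndal fell by a like amount (168 and 185 CPM in Control, 90.4 and 79.9 CPM in Diabetic, log2 change -1.04 ± 0.11, adjusted p = 0.000216), so the reads of the pair are uncertain between them. Ifi27l2a (chr12:103442167-103443680) lay at 40.9 and 43.2 CPM in Control, against 12.04 and 6.17 CPM in Diabetic (log2 change -2.14 ± 0.25, adjusted p = 0.000586). Neither gene overlapped between the groups. The other 6, Ifi44, Ifi35, Xaf1, Trim30a, Lgals3bp and Samd9l, had log2 changes between -0.53 and -0.08 and none was called.

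**Figure D2:**
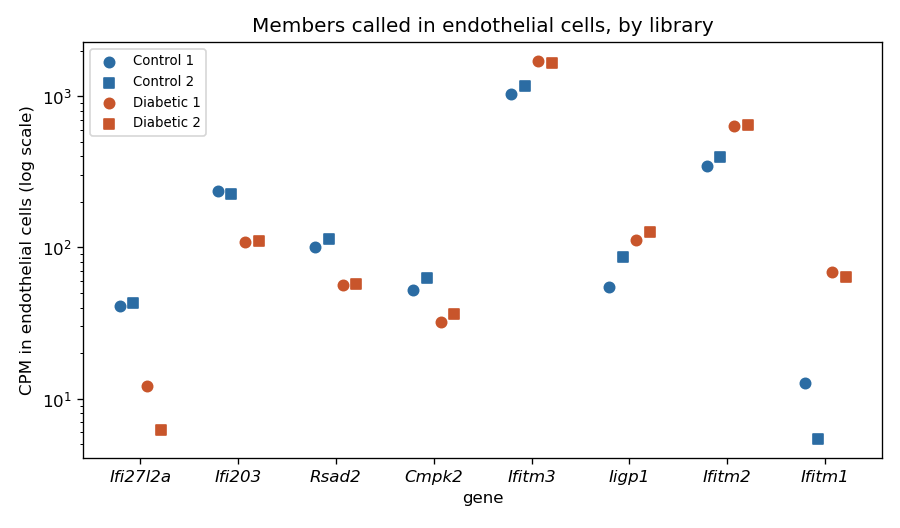
CPM in endothelial cells (log axis) of the 8 called members in each library; blue marks Control, orange Diabetic, circles replicate 1 and squares replicate 2. The 2 colours do not overlap for any of the 8 genes, which adds no support, since the genes were picked by their test in these same libraries. The gap is widest for Ifitm1 (12.7 and 5.40 against 69.1 and 64.0 CPM).

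Of the GTPases that attack the vacuoles of intracellular pathogens, 1 of 6 tested rose. Iigp1 lay at 54.6 and 86.4 CPM in Control, against 112 and 126 CPM in Diabetic (log2 change 0.79 ± 0.17, adjusted p = 0.0255). The others, Gbp2, Gbp3, Gbp7, Igtp and Irgm1, had log2 changes between -0.35 and 0.44. Igtp overlaps its relative Irgm2 on the same strand.

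The transcription factors were not called, 0 of 4. Irf1, an early factor downstream of interferon gamma, lay at 66.4 and 65.5 CPM in Control, against 70.8 and 77.9 CPM in Diabetic (log2 change 0.16 ± 0.12). Irf7 lay at 80.1 and 108 CPM in Control, against 73.4 and 69.9 CPM in Diabetic (log2 change -0.37 ± 0.14, adjusted p = 0.203). Neither factor overlapped between the groups, but neither change passed the test. How many of all genes also separated the groups was not counted. Irf9 lay at 72.8 and 94.5 CPM in Control, against 76.0 and 77.6 CPM in Diabetic, with overlapping groups. Stat2 lay at 60.5 and 64.8 against 55.6 and 53.8 CPM, lower in both Diabetic libraries (log2 change -0.19 ± 0.13, adjusted p = 0.503).

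The families most often used to read out an interferon response were likewise not called: 0 of 4 IFIT genes, 0 of 2 in the ISG15 system and 0 of 6 RNA sensors and OAS proteins. Ifit1, which binds foreign RNA, lay at 137 and 186 CPM in Control, against 103 and 145 CPM in Diabetic (log2 change -0.37 ± 0.18, adjusted p = 0.326). Isg15 differed by 0.03 ± 0.13. Usp18, the protease that removes ISG15, lay at 33.7 and 33.1 CPM in Control, against 26.2 and 29.97 CPM in Diabetic (log2 change -0.26 ± 0.17). Oasl2, a relative of the oligoadenylate synthetases, lay at 92.8 and 85.0 CPM in Control, against 64.1 and 79.6 CPM in Diabetic (log2 change -0.33 ± 0.14, adjusted p = 0.257). Usp18 and Oasl2 thus lay lower in both Diabetic libraries without passing the test, while Ifit1 and Isg15 overlapped between groups. With 2 libraries a group, such an order alone is no sign of a change, and its share over all genes was not counted. Ifit3 lay at 45.9 and 75.6 CPM in Control, against 45.0 and 78.4 CPM in Diabetic, where 82 of the 267 UMIs of Diabetic 2 came from 1 cell. Ifit3 and Ifit3b are near-identical copies, and their counts are uncertain between them. Ifih1, the long double-stranded RNA sensor MDA5, had a log2 change of -0.53 ± 0.14 that missed the threshold (adjusted p = 0.0642), as did Ifi44 at -0.53 ± 0.14 (adjusted p = 0.0645).

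These calls rested on all 4 libraries. None of the 8 passed with Diabetic 1 left out, when 1 of all genes was called, and Ifitm1 alone passed with Diabetic 2 left out; their sizes then ran from 2.39 to 3.61 over the 4 such fits for Ifitm1, from 0.51 to 0.71 for Ifitm3 and from -1.02 to -0.82 for Rsad2. Iigp1 was also lost without Control 1 (log2 change 0.45, adjusted p = 0.236), and Cmpk2 without either Control library and with DESeq2 (adjusted p = 0.196).

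Cells with inflamed venular markers moved with part of this result. Their 7-gene marker sum in the endothelial class was 68.2 and 142 CPM in Control 1 and 2 and 1192 and 1279 CPM in Diabetic 1 and 2. In the 8 and 10 such cells of Control 1 and 2, Ifitm1 lay at 25.4 and 12.7 CPM, from 2 and 3 UMIs. There Ifitm2 lay at 342 and 537 CPM and Ifitm3 at 1255 and 1682 CPM. In these cells of Diabetic 1 and 2, Ifitm1 lay at 218 and 169 CPM, Ifitm2 at 1100 and 964 CPM and Ifitm3 at 2564 and 2274 CPM, all above the class as a whole. Without them, the log2 change of Ifitm1 was 0.10 ± 0.41 (adjusted p = 0.947), that of Ifitm2 0.35 (adjusted p = 0.103), that of Ifitm3 0.34 (adjusted p = 0.0738) and that of Cmpk2 -0.59 (adjusted p = 0.106). With these cells left out, the other 4 calls passed: Iigp1 at 0.79 (adjusted p = 0.0307), Rsad2 at -0.78 (adjusted p = 0.00738), Ifi203 at -0.93 (adjusted p = 0.000279) and Ifi27l2a at -2.15 (adjusted p = 0.00248). With equal numbers of arterial-like, capillary-like and venous-like cells in each library, however, only Ifi203 of the 8 passed (-1.01, adjusted p = 0.00125), and Ifitm1 was not tested. Iigp1 was at 0.48 (adjusted p = 0.494), Rsad2 at -0.56 (adjusted p = 0.357) and Ifi27l2a at -1.82 (adjusted p = 0.0608). Samd9l, not called with all cells, was then lower (-0.75, adjusted p = 0.0343). That set held no inflamed venular cells, and 159, 72, 327 and 150 cells in Control 1, Control 2, Diabetic 1 and Diabetic 2. Over all genes 54 were called higher and 60 lower in it, against 302 and 185 with all endothelial cells. The part of the smaller cell number was not tested, nor was that of the depth of inflamed venular cells in the fits without them. Neutrophil markers in the endothelial class were also higher in Diabetic (38.7 and 27.0 CPM against 1.36 and 9.45 CPM), and without cells holding S100a8 or S100a9 every call but that of Cmpk2 passed (adjusted p = 0.0621).

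**Figure D3:**
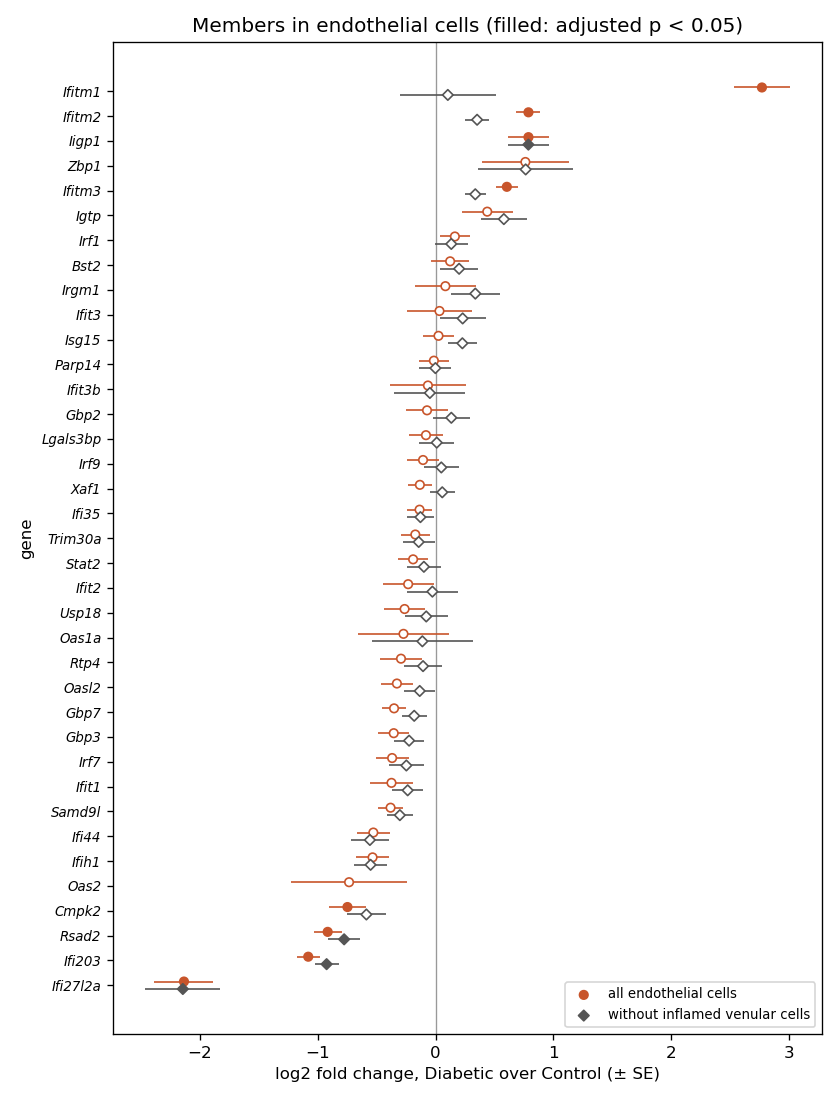
Log2 fold change (± SE) of Diabetic over Control for the 37 members tested in endothelial cells, with all cells (orange circles) and without cells that hold inflamed venular markers (grey diamonds); filled symbols passed an adjusted p of 0.05. Ifitm1 moves from 2.77 to 0.10 when those cells are left out, while Ifi203 and Ifi27l2a lie at -0.93 and -2.15 without them.

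The signalling genes around the list were read from 110 further genes fixed as pathway lists, 109 of which were in the matrices and 74 of which were tested in endothelial cells. Of the 74, 3 rose and 4 fell (2.57% and 1.58% over all genes tested), with a median of -0.08. None of the 5 receptor subunits tested was called: Ifnar1 changed by -0.24 ± 0.10, and Ifnar2, Ifngr1, Ifngr2 and Il10rb lay between -0.14 and 0.08. Socs3, a feedback inhibitor of JAK signalling that also answers to interleukin 6 and related cytokines, rose from 45.5 and 61.4 CPM to 168 and 199 CPM (log2 change 1.80 ± 0.16, adjusted p = 6.06e-05). Stat3, which acts downstream of those cytokines, rose by 0.53 ± 0.10 (adjusted p = 0.0126), and Sting1, the adaptor of DNA sensing, by 1.39 ± 0.35 (adjusted p = 0.0483). The 4 that fell were other interferon targets, Mndal, Trim34a, Sp100 and Trim25, of 45 tested in that list (1.58% of all genes fell).

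Interferons themselves were nearly unseen. Of the 11 ligand genes none was tested, and over all 19716 cells Ifng had 5 UMIs in Control 1 and 1 in Diabetic 1, Ifnk had 4 in Diabetic 1 and 1 in Diabetic 2, and Ifnab had 1 in Diabetic 1. The others, Ifnb1 and the Ifna genes included, had 0 UMIs in every library. At this depth a low level of ligand was not detectable.

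Endothelial cells were also split by vessel type on markers that are not members. Arterial-like, capillary-like and venous-like cells were compared within libraries, with 32 members tested in each pair. Arterial-like cells had more Ifitm3 than capillary-like cells (log2 difference 0.71 ± 0.11, adjusted p = 7.1e-06). Its levels in Control 1, Control 2, Diabetic 1 and Diabetic 2 were 1455, 1634, 1964 and 1938 CPM in arterial-like cells and 999, 966, 1204 and 1229 CPM in capillary-like cells. The arterial-like value was the higher of the pair in every library. In the same comparison Ifitm2, Lgals3bp and Trim30a were higher by 0.50 ± 0.11, 0.91 ± 0.18 and 0.65 ± 0.20, and Rsad2 was lower by a log2 difference of -0.84 ± 0.20 (4.69% of all genes were called higher and 1.93% lower). Trim30a did not hold in every library: in Diabetic 2 it lay at 40.6 CPM in arterial-like against 57.1 CPM in capillary-like cells.

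Venous-like cells had less Rsad2 and Ifi203 than capillary-like cells, with log2 differences of -0.92 ± 0.20 (adjusted p = 0.00414) and -0.83 ± 0.15 (adjusted p = 0.000513), where 1.16% of all genes were called lower. Rsad2 lay at 114, 165, 74.7 and 79.9 CPM in capillary-like and at 50.8, 63.6, 59.2 and 37.9 CPM in venous-like cells of the same libraries. In capillary-like cells of Control 2, 36 of the 123 Rsad2 UMIs came from 1 cell. Among the 32 tested members, the log2 difference between arterial-like and venous-like cells was widest for Lgals3bp, at 130, 109, 86.1 and 86.6 CPM in arterial-like against 28.6, 24.5, 33.1 and 29.5 CPM in venous-like cells (log2 difference 1.75 ± 0.26, adjusted p = 2.5e-06). Ifitm3 and Ifi203 were also higher in arterial-like than in venous-like cells (4.25% of all genes called higher). In Diabetic 1, however, Ifi203 lay at 101.2 CPM in arterial-like and 101.8 CPM in venous-like cells. Isg15 and Ifit1 were not called in any of the 3 pairs.

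**Figure D4:**
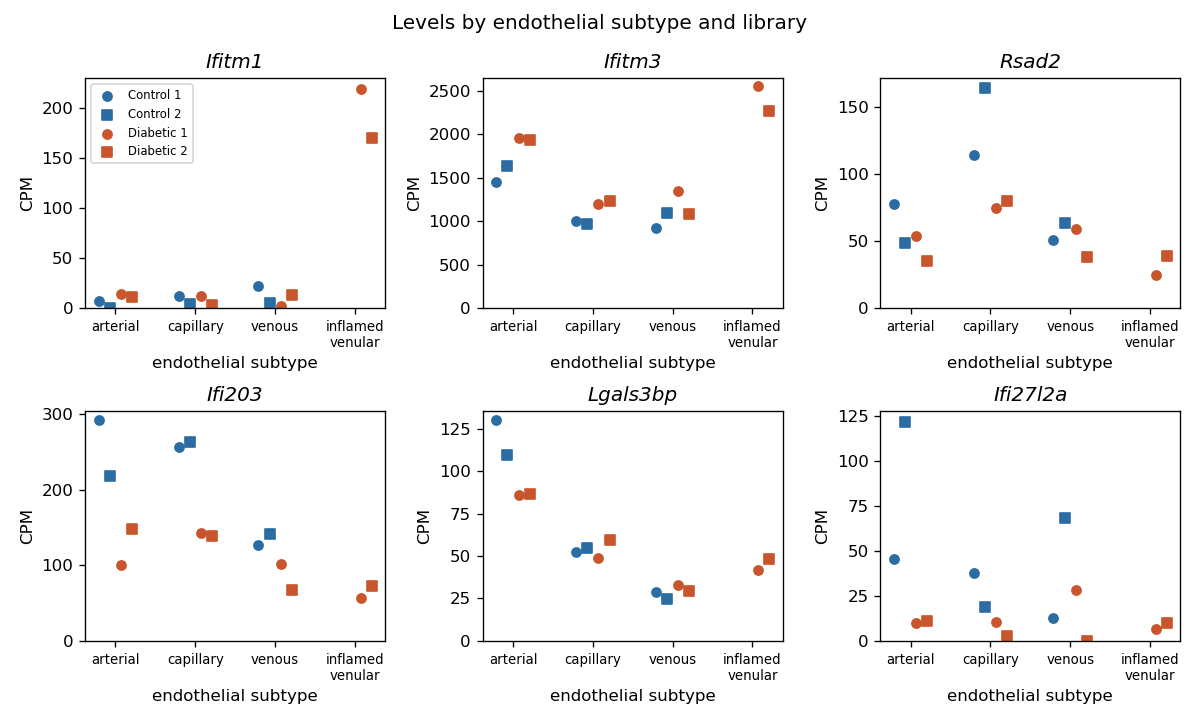
CPM of 6 members, chosen after their values were seen, in 4 endothelial subtypes by library (blue Control, orange Diabetic; circles replicate 1, squares replicate 2; linear axes from 0). Control values of the inflamed venular type are not drawn because those libraries held 8 and 10 such cells (Ifitm1 at 25.4 and 12.7 CPM). Among the values drawn, Ifitm1 is high in that type alone (218 and 169 CPM in Diabetic 1 and 2), whereas Rsad2 is highest in capillary-like cells.

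Within vessel types, Diabetic was again set against Control. In capillary-like cells, 1 of 34 members tested rose and 3 fell (0.587% of all genes called higher, 0.646% lower). Iigp1 lay at 51.6 and 65.6 CPM in Control, against 122 and 105 CPM in Diabetic (log2 change 0.97 ± 0.16, adjusted p = 0.00229). Ifi203 lay at 257 and 264 against 144 and 139 CPM (log2 change -0.91 ± 0.12, adjusted p = 0.000212). Rsad2, given above by library, changed by -0.85 ± 0.16 (adjusted p = 0.00858), and Ifi27l2a by -2.07 ± 0.42 (adjusted p = 0.0118). The groups did not overlap for any of the 4, which adds no support, since the 4 were picked by their test in these libraries. Ifi27l2a lost its call without Control 1 (log2 change -1.38, adjusted p = 0.324). With DESeq2 the calls of Iigp1 (adjusted p = 0.0807) and Rsad2 (adjusted p = 0.0887) were lost.

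In arterial-like cells, 2 of 30 members tested fell (3.0% of all genes called lower), Ifi203 at 292 and 219 against 101 and 149 CPM (log2 change -1.06 ± 0.25, adjusted p = 0.00404) and Ifi27l2a at 45.5 and 121 against 10.1 and 10.8 CPM (log2 change -2.97 ± 0.55, adjusted p = 0.000276). Ifi203 lost its call without Control 1 (adjusted p = 0.136) or Diabetic 1 (adjusted p = 0.310), and with DESeq2 (adjusted p = 0.161). Ifi27l2a lost its call without Control 2 (adjusted p = 0.418) or either Diabetic library. In venous-like cells, 0 of 28 members tested were called by edgeR (0.329% of all genes). An unadjusted p under 0.05 was reached by 3 of them, against 366 of all 5161 genes tested. Ifitm1 was near the limit of counting in all 3 vessel types, at no more than 22.2 CPM.

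Outside the endothelium, Ifitm genes and Irf7 were the members called between Diabetic and Control. In pericytes or smooth muscle, 0 of 7 members tested were called by edgeR (0.575% of all genes). An unadjusted p under 0.05 was reached by 3 of the 7, against 243 of all 3129 genes tested. In microglia or macrophages, 2 of 11 members tested rose (2.99% of all genes called higher). Ifitm2 lay there at 202 and 348 CPM in Control, against 753 and 656 CPM in Diabetic (log2 change 1.38 ± 0.30, adjusted p = 0.0225). Ifitm3 lay at 455 and 637 against 1063 and 1113 CPM (log2 change 0.99 ± 0.25, adjusted p = 0.0406). Neither overlapped between groups. In Control 2, which held 21 such cells, 23 of the 30 Ifitm2 UMIs came from 1 cell, and without the top cell of each library the changes were 2.21 (adjusted p = 0.00548) and 1.35 (adjusted p = 0.0112). Ifitm2 lost its call without Diabetic 1 (adjusted p = 0.0744), and Ifitm3 without Control 1, Diabetic 1 or Diabetic 2 (adjusted p = 0.0692, 0.140 and 0.142). Endothelial markers in this class summed to 278 and 139 CPM in Control against 448 and 336 CPM in Diabetic, and their part in the result was not tested.

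In Müller glia, 3 of 17 members tested rose (0.948% of all genes called higher), but 1 cell in each Diabetic library held many of their UMIs. Ifitm1 lay at 3.09 and 1.48 CPM in Control, against 92.4 and 33.7 CPM in Diabetic (log2 change 4.66 ± 0.63, adjusted p = 1.87e-05), with 34 of 40 UMIs of Diabetic 1 and 14 of 14 of Diabetic 2 in 1 cell each. Ifitm2 lay at 46.3 and 35.4 against 150 and 135 CPM (log2 change 1.78, adjusted p = 3.29e-05), and Ifitm3 at 50.9 and 78.2 against 298 and 168 CPM (log2 change 1.83, adjusted p = 3.88e-05). The top cells of Diabetic 1 and 2 held 23 of 65 and 31 of 56 of the Ifitm2 UMIs, and 82 of 129 and 39 of 70 of the Ifitm3 UMIs. Without the top cell of each library, Ifitm2 differed by 1.39 (adjusted p = 0.120), Ifitm3 by 0.80 (adjusted p = 0.468), and Ifitm1, at 3.14, 1.57, 14.95 and 0 CPM, was not tested. Those top cells held 13.5 and 16.7 UMIs of the pigment epithelium, melanocyte and fibroblast marker list per 10000 in Diabetic 1 and 2, and that list summed to 38.6 and 14.8 CPM in Control against 162 and 183 CPM in Diabetic over the class. Ifitm1 also lost its call without Diabetic 1 (adjusted p = 0.130).

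In rods, 1 of 34 members tested rose (4.54% of all genes called higher). Irf7 lay at 17.8 and 19.2 CPM in Control, against 35.7 and 35.4 CPM in Diabetic (log2 change 0.85 ± 0.08, adjusted p = 0.00763), and the groups did not overlap. Phrf1, which overlaps Irf7 on the opposite strand, lay at 67.4, 64.0, 62.0 and 63.4 CPM in the same cells. The Irf7 call was lost without Diabetic 1 (log2 change 0.83, adjusted p = 0.0562). Of the 34 members, 27 had a log2 change above 0, and Cldn5, the endothelial gene, lay in rods at 38.8 and 13.4 CPM in Control, against 50.2 and 28.3 CPM in Diabetic; the part of free RNA was not tested. In cones, 1 of 5 members tested rose (0.586% of all genes called higher), Ifitm3, at 7.91 and 4.92 against 27.6 and 12.03 CPM (log2 change 1.66 ± 0.41, adjusted p = 0.0499). That call was lost without the top cell (adjusted p = 0.0666), without Control 2 (adjusted p = 0.0551), without Diabetic 1 (adjusted p = 0.780) and with other size factors (adjusted p = 0.052), and Cldn5 in cones lay at 19.5 and 12.3 against 47.2 and 30.5 CPM. No member was tested in bipolar cells, where 0.156% of all genes were called.

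Whether a diabetic change differed between endothelial cells and another class was tested as an interaction. Members were called in 6 such tests: Ifitm1 and Ifit3 against pericytes (0.115% of all genes called higher, 0.0954% lower), Ifitm1 and Bst2 against microglia (0.624% higher), Ifitm3 against Müller glia (0.531% lower) and Irf7 against rods (0.0971% lower). None was called against cones (0.366% in either direction) or bipolar cells (0.104%) by edgeR, where 7 and 0 members had an unadjusted p under 0.05. Over all genes, 1056 of 12553 and 684 of 11489 had such a p in these 2 tests. Irf7 differed by -1.15 ± 0.15 (adjusted p = 0.0161), since it rose in rods and lay lower in both Diabetic libraries in endothelial cells. That call was lost without Diabetic 2 (-1.24, adjusted p = 0.0821).

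The spread between single cells was read from 6 gate genes, Ifit1, Ifit3, Isg15, Rsad2, Usp18 and Oasl2, in endothelial cells thinned to 1000 UMIs each. A cell with UMIs of at least 2 of the 6 is called responding here, which is a range of a per-cell count and not a cell type. By this rule 51 of 504 cells of Control 1 (10.1%, exact 95% interval 7.63 to 13.1), 20 of 227 of Control 2 (8.81%, 5.46 to 13.3), 79 of 1135 of Diabetic 1 (6.96%, 5.55 to 8.60) and 49 of 552 of Diabetic 2 (8.88%, 6.64 to 11.6) were responding. The 4 intervals, which cover counting error only, overlap each other, and the groups overlap. Cells with exactly 1 gate gene, just outside the rule, made up between 21.0% and 23.3% of each library, and cells with exactly 2, just inside it, between 4.35% and 7.14%. Without thinning the shares were 34.7%, 35.5%, 26.3% and 36.3%, at median depths of 3070, 4241, 2955 and 4218 UMIs, and thinning left out 44, 24, 138 and 52 shallower cells. Rods thinned the same way had 0 responding cells of 2993, 1094, 2956 and 1407, with an exact upper bound of 0.123% in Control 1, and between 0.601% and 0.995% of them had a UMI of any gate gene, against 28.4% to 32.2% of endothelial cells.

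**Figure D5:**
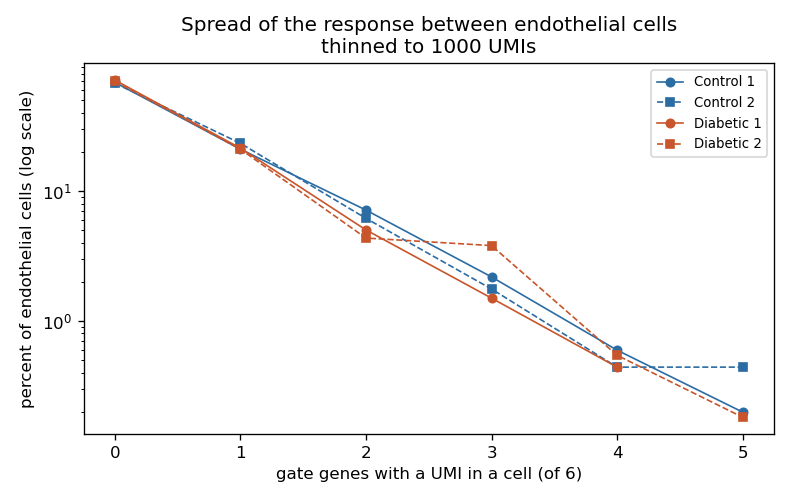
Percent of endothelial cells (log axis) by the number of the 6 gate genes with a UMI after thinning to 1000 UMIs, for each library (blue Control, orange Diabetic; solid line replicate 1, dashed line replicate 2). The 4 curves run close together from between 67.8% and 71.6% of cells with none downward, no cell had all 6, and Diabetic 1 has no point at 5 genes because it held 0 such cells.

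By vessel type the shares of responding cells in Control 1, Control 2, Diabetic 1 and Diabetic 2 were 11.7%, 9.03%, 8.54% and 9.63% among capillary-like cells. Among arterial-like cells they were 8.70%, 9.09%, 8.11% and 14.3%, from 22 to 148 cells per library. Venous-like cells gave 0 of 53 in Control 1 and 9.38%, 7.69% and 8.33% in the others. In Diabetic, the cells with inflamed venular markers were high in Ifitm1, Ifitm2 and Ifitm3. They held the lowest share of responding cells of the 4 types in both Diabetic libraries, 4 of 183 (2.19%, 0.599 to 5.50) and 4 of 103 (3.88%, 1.07 to 9.65). Without them the endothelial shares were 10.1%, 8.76%, 7.88% and 10.0%.

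The other 32 members, which did not define the responding cells, were then compared between responding and remaining cells. In responding cells 21 of the 32 had a higher level than in the remaining cells of the same library in all 4 libraries, 5 in 3 libraries, 3 in 2 and 3 in 1. Among genes with 40 or more UMIs in the thinned cells, gate genes left out, this held in all 4 libraries for 21 of 28 members (75%) and for 329 of all 7679 genes (4.28%). Ifit3b, Ifit2 and Ifi44 stood furthest apart among those with more than 40 UMIs: Ifit3b had 106 UMIs per 1000 responding cells against 12.2 per 1000 others, Ifit2 101 against 18.9 and Ifi44 136 against 32.0. Ifi27l2a, which fell in Diabetic, had 50.3 against 14.9, and Iigp1, which rose, had 201 against 84.3. The Ifitm genes had another pattern: Ifitm3 had 1844 against 1312 per 1000 cells, Ifitm2 477 against 511, and Ifitm1 5.03 against 30.2, with 1 Ifitm1 UMI in all 199 responding cells. Irf1 had 95.5 against 69.4 and was higher in 2 libraries. All values here are from thinned cells, no test was made across cells, and Ifit3b may share reads with the gate gene Ifit3.

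Each of the other 5 gate genes was set against Isg15 in single cells, and in 19 of 20 pairs of gene and library it was seen in a larger share of the cells with Isg15. The corresponding share over all genes was not counted, so the count is a description only. Outside the gate, Ifi203, Ifitm3, Bst2, Gbp3, Gbp7, Irf7 and Rtp4 were also seen in a larger share of the cells with Isg15 in every library. The exception among the gate genes was Rsad2 in Control 1 (7.46% against 7.55%), and Usp18 in Control 2 was at 3.33% against 2.03% with 30 Isg15 cells. Ifit1 was seen in 23.9%, 40%, 11.3% and 30.1% of the thinned cells with an Isg15 UMI in Control 1, Control 2, Diabetic 1 and Diabetic 2, against 5.72%, 7.11%, 5.23% and 7.72% of the cells without one. The share with Isg15 was the higher of the pair in every library and the lowest of the 4 was Diabetic 1. Single cells could hold much of a gene: for Rsad2 in Control 2 the variance over cells was 10.4 times the mean. It was 1.20, 1.03 and 1.66 times the mean in Control 1, Diabetic 1 and Diabetic 2, and the median over genes in Control 2 was 0.982. In Diabetic 2, 1 endothelial cell, which also held inflamed venular markers, carried 715 of the 16545 member UMIs of its class. Without the top cell of each library all 8 endothelial calls were again past the threshold.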

How the data were processed

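Single-cell 3′ libraries from CD31-enriched mouse retina (2 Control, 2 Diabetic) were made with 10x Chromium chemistry, per the labels' protocols. The deposited matrices hold raw UMI counts per gene and barcode, which the authors made with Cell Ranger 7.0.0, STAR 2.7.10b and the build mm10, per the submitters' processing notes; no normalization is in the files. Each library had between 29792902 and 58792636 UMIs.

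Cells needed 500 UMIs, 300 genes and a mitochondrial share of no more than 20%. Cells were assigned to a class when its summed markers reached a minimum per 10000 UMIs and those of every other class stayed under a limit; Vtn and Glul were left out, and 5798 cells with markers of more than 1 class or of none were not used. This stood in for doublet calling, so no caller was run, and clustering was not used. The limits were set from marker distributions in 2 rounds: the rod limit was raised from 150 to 200 and the arterial minimum lowered from 40 to 30, so that microglia and arterial-like cells of Control 2 reached 20 cells, and inflamed venular cells were taken first. Minima per 10000 UMIs were set for arterial-like, capillary-like and venous-like cells. Inflamed venular cells had no such minimum and needed 2 of their markers, a rule that was not scaled to depth. The subtypes are named from markers only; Car4, a capillary marker, was among the leading genes of venous-like cells.

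Counts were summed per library and class and tested with edgeR 4.0.16 in R 4.3.3 (TMM, filterByExpr, quasi-likelihood F test, two-sided, with Benjamini-Hochberg adjustment over all genes tested). Calls were made at an adjusted p under 0.05, and errors are SE of the log2 fold change. DESeq2 1.42.0 was an alternative. Levels are CPM of the class sum, with no pseudocount. A class was tested where each library held 20 or more of its cells. Tests between classes had the library as a block. Intervals of shares are exact (Clopper-Pearson) and cover counting error only. On simulated endothelial counts of 11741 genes, 37 of 50 genes changed by a log2 of 1 were called, and 49 of 50 changed by a log2 of 2. For -1 and -2 these were 37 and 50 of 50, and there were 15 false calls in all. Changes under a log2 of 1, such as those of Ifitm2, Ifitm3, Iigp1, Rsad2 and Cmpk2, were not simulated. The counts were drawn with the spread fitted to these libraries, so they do not gauge these calls.

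The members, the pathway lists and the tests were chosen with earlier results of these data known. Values in every library are given for members called in any class, the 6 gate genes, Irf1, Irf7, Irf9 and Stat2; the rest are summarised. The marker lists reported are those of endothelial, rod, lymphocyte, neutrophil, inflamed venular, and pigment epithelium, melanocyte or fibroblast cells. Gene positions are GENCODE vM21 on mm10 (GRCm38), and promoters are RefSeq on GRCm38.p6. Alternatives that left out the most strongly marked cell, the library block, or the inflamed venular cells from the shares were added after seeing the data. One gene of the pathway lists is not reported here.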

Additional observations from a re-analysis of the deposited data

Results flagged for a closer look

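Each of 6 results below is a difference between the diabetic change in endothelial cells and that in another class of the same libraries, by edgeR's interaction test. The endothelial changes of Ifit3, Bst2 and Irf7 were not called on their own. That of Ifitm1 was 0.10 ± 0.41 without cells with inflamed venular markers, and the interaction was not fitted without them. Ifitm1 changed more in endothelial cells than in pericytes by 2.21 ± 0.34 on the log2 scale (adjusted p = 3.55e-07), and by 2.04 without the top cell of each library. For Ifit3 the same difference was -4.25 ± 1.01 (adjusted p = 0.0137), but 20 of the 23 Ifit3 UMIs in pericytes of Diabetic 2 lay in 1 cell, and without the top cells the value was -1.60 (adjusted p = 0.994). Without Diabetic 2 it was 5.03, and the call was also lost without Control 1 (-10.2, adjusted p = 0.0718) or Control 2 (-3.13, adjusted p = 0.501), and without the library block (-4.30, adjusted p = 0.703).

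Against microglia, Ifitm1 differed by 4.64 ± 0.78 (adjusted p = 9.84e-07), with 12 of the 13 microglial Ifitm1 UMIs of Control 1 in 1 cell and 0 UMIs in Control 2, and without Control 1 the value was -4.45. Bst2 differed from microglia by 1.28 ± 0.34 (adjusted p = 0.0139) and by 1.18 without the top cells (adjusted p = 0.0631), and its call was lost without Control 1 (0.37), Diabetic 1 (0.98) or Diabetic 2 (1.44), with no filter (adjusted p = 0.0722) and without the library block (adjusted p = 0.202). Ifitm3 changed less in endothelial cells than in Müller glia, by -1.19 ± 0.27 (adjusted p = 0.0142), and by -0.17 without the top cells (adjusted p = 0.960), and its call was lost without Control 1 (-0.99) or Diabetic 1 (-0.73), and without the library block (adjusted p = 0.169). Irf7 differed from rods by -1.15 ± 0.15 (adjusted p = 0.0161), and by -1.15 without the top cells (adjusted p = 0.0129), and its call was lost without Diabetic 2 (-1.24). The part of single cells in these results was tested only by leaving out the cell with the most member UMIs.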

How the results depend on the processing

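With 2 libraries a group, leaving 1 out leaves an arm with 1 sample, which is then assumed to vary like the other group. Over such fits the endothelial counts ran from 0 to 5 higher and 0 to 3 lower (4 and 4 with all libraries), those of the other classes from 3 to 7 higher and 0 to 3 lower (7 and 0), those of the vessel types from 1 to 3 higher and 3 to 4 lower (1 and 5), vessel types against each other from 2 to 6 lower (3), and the interactions from 1 to 6 lower (3). Over all genes, 1 was called higher and 0 lower in endothelial cells without Diabetic 1, and 29 and 2 without Diabetic 2, against 302 and 185 with all; the counts were 128 and 97 without Control 1, 738 and 553 with the replicate block, 572 and 316 with no filter, 172 and 77 with DESeq2, 54 and 60 with equal subtypes, 105 and 61 after thinning, and 97 and 94 without inflamed venular cells. Ifit3 against pericytes turned to 5.03 without Diabetic 2 (adjusted p = 1.0) and was -10.2 without Control 1. Ifitm1 against microglia turned to -4.45 without Control 1 (adjusted p = 0.9504) and reached 5.01 without Control 2. The cause was not tested.

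The labels do not say what a replicate number shares, and 2 pairs of libraries are too few to settle it; the deviations of same-numbered libraries correlated at 0.20 in endothelial cells, 0.46 in rods and 0.01 to 0.06 in the rest. With the replicate block 12 members were lower in endothelial cells, 13 were higher and 3 lower in the other classes, and 2 were higher in the vessel types. The block also raised the calls over all genes in every class and vessel type. Rods had 2462 higher and 2511 lower with it, against 761 and 674 without. Müller glia had 121 and 22, against 77 and 4, and capillary-like cells 175 and 199, against 60 and 66. In endothelial cells, leaving out those with inflamed venular markers left 1 member higher, equal numbers of each subtype 0 higher and 2 lower (Ifi203 and Samd9l), and thinning to 1000 UMIs 2 higher and 1 lower. In the other classes no filter gave 13 higher, other size factors (RLE) 1 lower, and leaving out the top cells 4 higher. Over all genes, no filter gave 1653 higher and 1470 lower in rods and 66 and 5 in Müller glia. Leaving out the top cells gave 796 and 650 in rods and 14 and 0 in Müller glia. In the vessel types no filter gave 3 higher, and DESeq2 0 higher and 1 lower. Without the library block 1 member was lower between vessel types and 1 in the interactions, where no filter gave 6. The stricter gate and a mitochondrial limit of 10% kept all 8 endothelial calls, and the counts of endothelial cells against other classes (182 higher, 4 lower) stayed within 1.5 times.

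The shares of responding cells in Control 1, Control 2, Diabetic 1 and Diabetic 2 were 31.2%, 32.2%, 28.4% and 29.9% with 1 gate gene or more, 2.98%, 2.64%, 1.94% and 4.53% with 3 or more, and 34.7%, 35.5%, 26.3% and 36.3% without thinning. In venous-like cells of Control 1 the share was 0.0%, and in arterial-like cells of Diabetic 2 it was 14.3%. Few members passed the filter in some classes: 7 were tested in pericytes, 5 in cones and 0 in bipolar cells. Cones held 1218273 to 2351801 UMIs per library, against 1481974 to 5067822 in endothelial cells. IFIT genes in cones summed to a mean of 3.97 CPM, against 259 CPM in endothelial cells. The part of depth was not tested.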

Other observations

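The summed level of all 38 members in endothelial cells was 3953 and 4631 CPM in Control 1 and 2 and 4680 and 4861 CPM in Diabetic 1 and 2, and Ifitm3 alone made up much of it. Without Ifitm1, Ifitm2 and Ifitm3 the sum was 2560 and 3057 CPM for Control, against 2275 and 2492 CPM for Diabetic. The order of the groups turned with these 3 genes; neither sum was tested.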
